A study of Mus musculus with 2 samples.

Results

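Nuclear receptors are transcription factors that are switched on by small lipid-soluble molecules, among them fatty acids, oxysterols, bile acids, drugs, vitamins A and D, thyroid hormone and steroids. They bind short DNA elements built on the hexamer AGGTCA or a related sequence, many of them as a dimer with a retinoid X receptor, and recruit coactivators or corepressors. In the small intestine they set the genes of fat and sterol absorption, drug metabolism, calcium uptake and enterocyte identity. The genes described here are 37 nuclear receptor genes of the 23284 genes listed. They were chosen by name from the receptor family, with earlier results of these data known. The clock receptors, the bile acid receptor pair, the immediate early Nr4a1 and the glucocorticoid receptor were not among them.

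The levels were measured by mRNA sequencing of mouse small intestinal epithelial cells of the genotypes miR-215-/- and miR-215+/+. There was 1 library of each genotype. The sources used here do not give what was removed at the miR-215 locus, the strain, sex and age, the number of animals behind a library or how the epithelium was isolated. Without replicates no difference below has a test, and "higher" and "lower" describe the miR-215-/- (knockout, KO) library relative to the miR-215+/+ (wild-type, WT) library. Values are FPKM, which scale fragment numbers by transcript length and library depth, so levels can be set side by side between genes.

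The summed FPKM were 683884 in the knockout library and 750631 in the wild-type library, and a transcript of 2 kb at 1 FPKM rested on about 18.6 fragments in KO and 18.0 in WT. Mir215 itself was listed at 0 in the knockout library and at 137 FPKM in the wild-type library. Mir192, whose microRNA has the same seed, was listed at 387 FPKM in the knockout library and at 0 in the wild-type library. These gene models are 112 nt and 89 nt long, too short for a fragment number to be estimated, and mature microRNAs were not measured, so the values are a weak check of the labels. All 9 epithelial marker genes were abundant, at 146 to 2893 FPKM in the knockout library and 141 to 2456 FPKM in the wild-type library. Markers of fibroblasts and smooth muscle summed to 63.9 FPKM over 14 genes in the knockout library, against 19.2 FPKM in the wild-type library. Of these 14, the 12 at 1 FPKM or more in at least 1 library were all at least 1.5-fold higher. Actg2, Des, Myh11, Cnn1, Col3a1 and Col6a1 passed that limit through the knockout library alone, so the limit itself partly sets this count. Of all 11504 genes that passed it, 4.83% were at least 1.5-fold higher. The 8 markers of macrophages and dendritic cells summed to 66.8 FPKM in KO and 54.2 FPKM in WT, and the 8 endothelial markers to 9.24 FPKM in KO and 4.95 FPKM in WT. The 9 markers of T cells and intraepithelial lymphocytes summed to 407 FPKM in KO and 386 FPKM in WT. The 5 of B and plasma cells summed to 89.0 FPKM in KO and 59.1 FPKM in WT, with 4 of these 5 lower. Of all 11504 genes at 1 FPKM or more in at least 1 library, 56% were lower. Of 8 markers of enteric neurons and glia 1 reached 1 FPKM, and Sox10 and Gfap, which mark glia, were listed at 0 in both libraries. In such a preparation of many cells, fewer cells of a type and less RNA per cell cannot be told apart.

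The mature microRNA miR-215-5p shares bases 2 to 8, the seed, with miR-192-5p, a microRNA encoded on another chromosome. Both are shown from RefSeq (GRCm38.p6) with the seed in capitals, because the seed sets which 3' UTRs pair with them.
mmu-miR-215-5p: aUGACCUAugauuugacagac
mmu-miR-192-5p: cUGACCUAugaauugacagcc
The DNA letters that pair with the seed are TAGGTCA, and the last 6 of these letters are the AGGTCA hexamer of the nuclear receptor response elements. Of the 37 receptor genes, 4 held TAGGTCA in the longest annotated 3' UTR (GENCODE M21, GRCm38). These are candidates, by sequence alone, for direct pairing with the whole seed. The sites are shown with the match in capitals.
Ppard, chr17:28300476-28300503 (+ strand): cgccggcgtccTAGGTCAttgtcacaga
Thrb, chr14:18036179-18036206 (+ strand): cagaatgatagTAGGTCAggacagccaa
Nr6a1, chr2:38725440-38725467 (- strand): cgtggagacatTAGGTCAgccactagat
Nr4a3, chr4:48086105-48086132 (+ strand): tgagagcctctTAGGTCAtcattttgaa
Other receptor genes lacked TAGGTCA but held the bare hexamer, Hnf4a and Vdr among them, or the hexamer followed by an A. The latter, AGGTCAA, is as long as TAGGTCA and was held by Esr2, Nr2c1 and Nr2f2. In all, 15 of the 37 held AGGTCA in some form. Among kept genes this was 8 of 25 receptors (32%) and 30% of the 10072 genes with an annotated 3' UTR, so the receptors were near the background. The hexamers of Hnf4a and Vdr, which are among the most abundant receptors, are shown in the same way.
Hnf4a, chr2:163571078-163571105 (+ strand): aatgacaaactgAGGTCAggggtagctg
Vdr, chr15:97855751-97855778 (- strand): aatagagggctaAGGTCAgacggagcat

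Of the 37 receptor genes, 25 reached 1 FPKM in at least 1 library and 12 did not. No receptor was 2-fold apart between the libraries on the log2(FPKM + 1) scale, where 3.38% of the 11504 genes that reached 1 FPKM in at least 1 library were. At 1.5-fold, 2 of the 25 were apart, Pparg and Nr1i3, both lower, which is 8% of the receptors against 12.1% of all genes kept. In that count 7.26% of all genes were lower and 4.83% higher. Small differences ran mostly one way: 20 of the 25 were lower and 5 higher, where 56% of all genes kept were lower and 44% higher. The share differed with level: among the 5729 genes at 10 FPKM or more in both libraries 65.8% were lower. Of the 15 receptors at such levels 12 were lower. The median log2 ratio of the 25 receptors was -0.29 and that of all genes kept was -0.05. With the knockout values multiplied to equal sums, 16 of 25 receptors were lower, against 40.7% of all genes, and Hnf4g, Nr2f2, Nr2c1 and Nr2c2 moved to just above 0. Relative to the median of all genes, the receptors' median was -0.24 as deposited, -0.25 with equal sums and -0.25 with equal upper quartiles. Multiplying 1 library by 1 factor moves both medians nearly alike, so these 3 values had to be close. The difference was -0.15 with 5 FPKM added in place of 1, -0.26 with 0.1 FPKM added and -0.17 with no filter on low values.

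**Figure D1:**
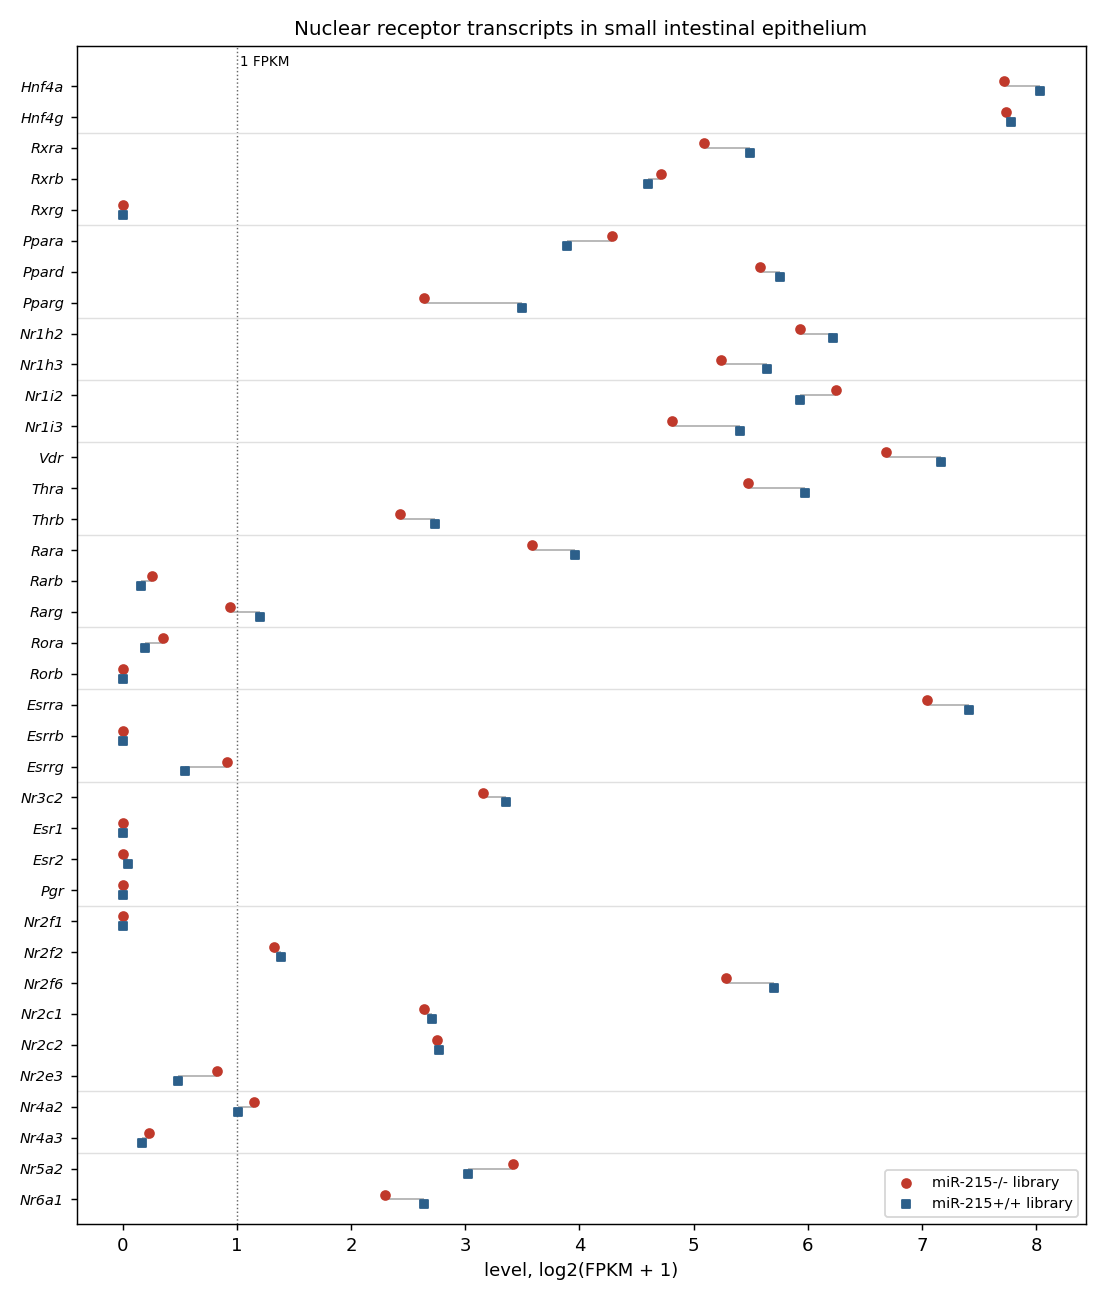
Levels of the 37 receptor genes, as log2(FPKM + 1), in the miR-215-/- library (red circles) and the miR-215+/+ library (blue squares), 1 library each, ordered by receptor group; the grey line joins the 2 values of a gene and the dotted line marks 1 FPKM. Hnf4a, Hnf4g, Esrra and Vdr lie highest in both libraries, 12 genes stay left of the dotted line in both, and no pair is 2-fold apart.

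The HNF4 receptors, constitutive activators that maintain enterocyte genes for lipid handling and the brush border, were the most abundant of the list. Hnf4a (chromosome 2, 163506808 to 163572910; gene positions are those of GENCODE M21 on GRCm38, the mm10 assembly) was at 209.8 FPKM in the knockout library and 260.0 FPKM in the wild-type library, a ratio of 0.807. Its 95% counting interval of 0.784 to 0.831, like all those below, covers counting error only. Hnf4g (chromosome 3, 3508030 to 3658052), its intestinal paralogue, was at 211 FPKM in KO and 218 FPKM in WT, a ratio of 0.971 with an interval of 0.931 to 1.01 that includes no difference. The pair was therefore nearly even in the knockout library, with Hnf4g at 1.01 times Hnf4a, against 0.837 times in the wild-type library. Hnf4a stayed lower and Hnf4g went to just above 0 on the log2 scale with equal sums.

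The 12 listed HNF4 targets, led by the apolipoprotein genes, went both ways, with 8 lower and 4 higher and a median log2 ratio of -0.12. Among genes at 10 FPKM or more in both libraries, as all 12 were, 65.8% were lower. Apoa1, the main protein of high-density lipoprotein and the most abundant gene of the list, was at 17185 FPKM in the knockout library and 18904 FPKM in the wild-type library. Apoc3, an apolipoprotein that slows lipid clearance, was at 2314 FPKM in KO and 4374 FPKM in WT and was the only one at least 1.5-fold lower. Apoc2, which activates lipoprotein lipase, was at 1908 FPKM in KO and 2779 FPKM in WT, while Dgat2, an enzyme of triglyceride synthesis, was higher at 243 FPKM in KO and 174 FPKM in WT. With equal sums 6 were lower and 6 higher, with a median of 0.01, so its direction depended on the scaling.

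Among the peroxisome proliferator-activated receptors, which sense fatty acids, the 3 paralogues differed in direction. Pparg (chromosome 6, 115360951 to 115490399), best known for driving fat storage, was at 5.21 FPKM in the knockout library and 10.3 FPKM in the wild-type library, or about 88 fragments in KO and 169 in WT. That is 1.97-fold lower, a ratio of 0.508 with an interval of 0.388 to 0.661, and it was the largest difference among the receptors kept. Ppara, the activator of fatty acid oxidation, was higher, at 18.5 FPKM in KO and 13.8 FPKM in WT (ratio 1.34, interval 1.17 to 1.53). Ppard, the most abundant of the 3 and a holder of the seed match, was at 46.7 FPKM in KO and 52.9 FPKM in WT (0.801 to 0.972). With its shortest annotated transcript, of 417 nt, the interval was 0.718 to 1.08. Ppara thus stood at 3.54 times the level of Pparg in the knockout library and 1.34 times in the wild-type library. Of the family's summed FPKM, Pparg took 7.40% in the knockout library and 13.3% in the wild-type library.

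Of 16 listed PPAR targets, 15 were kept, with 13 lower and 2 higher and a median log2 ratio of -0.47. Of all genes kept 56% were lower, and of those at 10 FPKM or more in both libraries 65.8%. Cyp4a10, a fatty acid omega-hydroxylase, was at 1.21 FPKM in the knockout library and 5.57 FPKM in the wild-type library (ratio 0.217, interval 0.133 to 0.341). Cd36, a fatty acid translocase, was at 44.3 FPKM in KO and 105.9 FPKM in WT (0.391 to 0.448). Angptl4, a secreted inhibitor of lipoprotein lipase, ran the other way at 152 FPKM in KO and 65.1 FPKM in WT (2.21 to 2.46). Fabp1, the fatty acid-binding protein and the most abundant target, was at 6247 FPKM in KO and 7846 FPKM in WT. The counts of 2-fold differences, 2 lower and 1 higher, lie beside the 2.04% and 1.34% of all genes kept that were 2-fold lower and 2-fold higher. Some of these genes answer to other receptors too, Angptl4 to glucocorticoids among them.

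**Figure D2:**
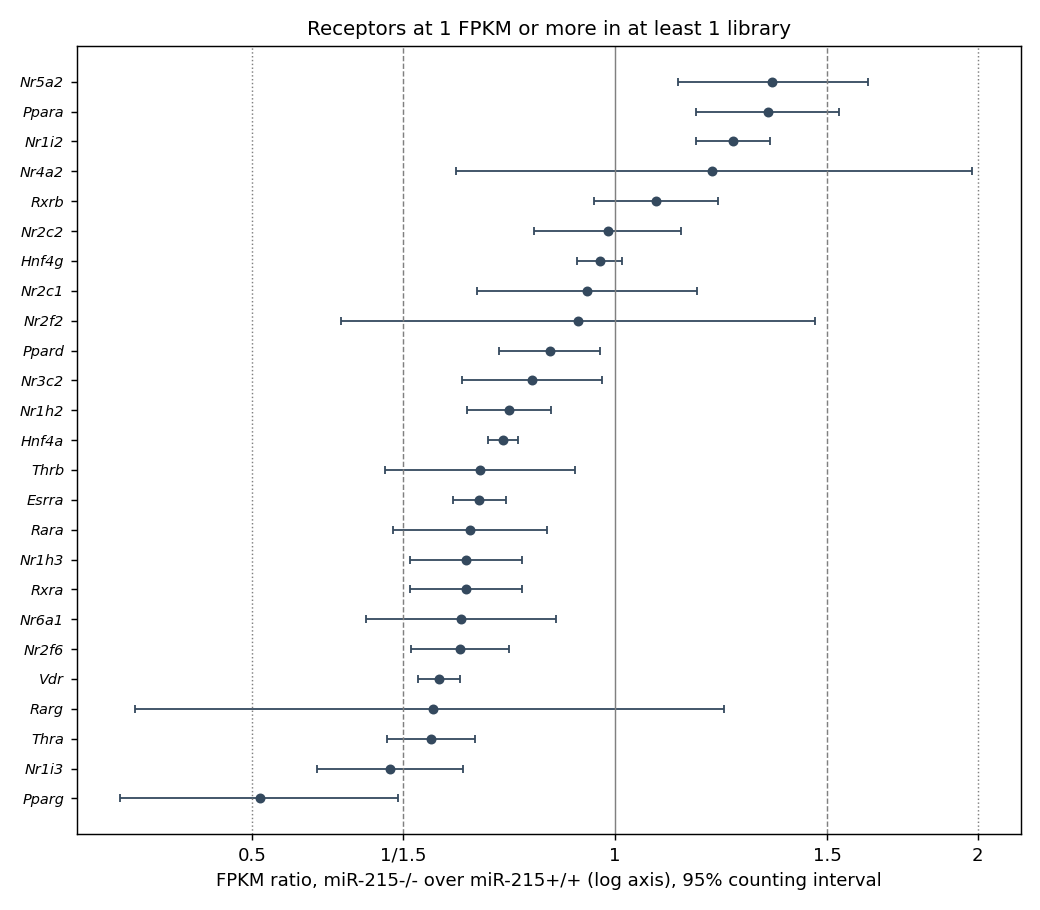
Ratio of FPKM, miR-215-/- over miR-215+/+, on a log axis for the 25 receptors at 1 FPKM or more in at least 1 library, with 95% intervals from estimated fragment numbers that cover counting error only; the solid line marks a ratio of 1, the dashed lines 1.5-fold and the dotted lines 2-fold. Pparg and Nr1i3 lie lowest, Nr5a2, Ppara and Nr1i2 highest, and the intervals of Rarg, Nr2f2 and Nr4a2, which rest on few fragments, are wide; with equal sums Hnf4g, Nr2f2, Nr2c1 and Nr2c2 cross to the other side of 1.

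The xenobiotic receptors diverged. Nr1i2 (chromosome 16, 38248323 to 38294824) encodes PXR, which binds drugs and bile acids, and was higher at 74.9 FPKM in the knockout library and 59.8 FPKM in the wild-type library (ratio 1.25, interval 1.17 to 1.35). Nr1i3 (chromosome 1, 171213970 to 171220701) encodes CAR, which is activated by phenobarbital-like inducers, and was lower at 27.0 FPKM in KO and 41.4 FPKM in WT, or about 341 fragments in KO and 507 in WT (0.651, 0.566 to 0.748). Their summed FPKM was nearly equal, at 102 in the knockout library and 101 in the wild-type library. PXR transcripts were 2.78 times those of CAR in the knockout library and 1.44 times in the wild-type library. With equal sums or equal upper quartiles Nr1i3 stayed lower but within 1.5-fold, at -0.47 and -0.50 on the log2 scale. Exons annotated for Nr1i3 overlap those of Tomm40l on the other strand over 3304 nt. Tomm40l was at 17.6 FPKM in KO and 18.0 FPKM in WT, and the sources used here do not say whether the counting used strand.

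The listed PXR and CAR targets were mostly lower, with 12 of 13 lower, 9 of them by at least 1.5-fold. Of all genes kept, 56% were lower and 7.26% at least 1.5-fold lower. Among genes at 10 FPKM or more in both libraries, 65.8% were lower. This list, like the other lists, was chosen with earlier results of these data known, so the counts describe the list only. The median log2 ratio of the 13 targets was -0.63. Their summed FPKM was 2105 in the knockout library and 3604 in the wild-type library. Cyp3a11, a drug-metabolizing cytochrome P450 and the most abundant gene of the list, was at 517 FPKM in KO and 1284 FPKM in WT (ratio 0.402, interval 0.394 to 0.411). Cyp2c55, of the arachidonic and linoleic acid-oxidizing Cyp2c family, was at 21.6 FPKM in KO and 98.4 FPKM in WT (0.196 to 0.245), and Cyp2c29 at 1.44 FPKM in KO and 21.4 FPKM in WT (0.0426 to 0.102). Gsta1, a glutathione transferase, also passed 2-fold at 29.2 FPKM in KO and 64.9 FPKM in WT; it and Por, named next, were picked after their values were seen. Por, the electron donor of all microsomal cytochromes P450, was the 1 gene that was higher, at 129 FPKM in KO and 114 FPKM in WT. With equal sums 12 of 13 were still lower, with 3 at 2-fold and 6 at 1.5-fold. The Cyp2c, Cyp3a and Gsta genes have close paralogues, and without knowing how shared fragments were divided among them their single values are uncertain.

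Promoters were searched for the AGGTCA hexamer on both strands, in RefSeq windows (GRCm38.p6) of 250 bases before to 50 after a gene's start. It was found in 16.3% of all 32851 windows, in 9 of 56 receptor windows (16.1%) and in 6 of 15 windows of the PXR and CAR targets (40%). Hnf4g and Thra had no entry. The 2 windows of Pparg that hold it, and those of Cyp3a11 and Cyp2c29 among the targets 2-fold lower, are shown with the hexamer in capitals. The windows of Cyp2c55, Gsta1, Nr1i2 and Nr1i3 do not hold these letters. A match describes the letters only, and the target list was chosen with earlier results of these data known.
Pparg, chr6:115360894-115361193 (+ strand): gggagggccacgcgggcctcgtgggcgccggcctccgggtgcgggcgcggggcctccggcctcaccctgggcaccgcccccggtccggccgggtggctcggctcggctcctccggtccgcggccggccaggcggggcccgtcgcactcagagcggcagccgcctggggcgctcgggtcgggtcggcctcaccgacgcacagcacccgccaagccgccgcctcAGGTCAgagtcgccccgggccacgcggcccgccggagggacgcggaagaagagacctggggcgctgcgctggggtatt
Pparg, chr6:115362099-115362398 (+ strand): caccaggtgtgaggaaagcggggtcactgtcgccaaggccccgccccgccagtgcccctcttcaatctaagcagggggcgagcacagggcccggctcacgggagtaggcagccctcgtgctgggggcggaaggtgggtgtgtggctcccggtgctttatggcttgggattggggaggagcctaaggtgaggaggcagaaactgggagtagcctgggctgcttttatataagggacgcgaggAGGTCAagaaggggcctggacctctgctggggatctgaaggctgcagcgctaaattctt
Cyp3a11, chr5:145879805-145880104 (- strand): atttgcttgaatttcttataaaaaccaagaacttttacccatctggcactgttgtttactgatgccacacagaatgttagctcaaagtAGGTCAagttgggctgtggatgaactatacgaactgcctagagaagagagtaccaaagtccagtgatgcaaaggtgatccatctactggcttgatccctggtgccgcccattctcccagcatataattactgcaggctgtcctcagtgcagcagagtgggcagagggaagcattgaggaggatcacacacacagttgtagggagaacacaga
Cyp2c29, chr19:39286835-39287134 (+ strand): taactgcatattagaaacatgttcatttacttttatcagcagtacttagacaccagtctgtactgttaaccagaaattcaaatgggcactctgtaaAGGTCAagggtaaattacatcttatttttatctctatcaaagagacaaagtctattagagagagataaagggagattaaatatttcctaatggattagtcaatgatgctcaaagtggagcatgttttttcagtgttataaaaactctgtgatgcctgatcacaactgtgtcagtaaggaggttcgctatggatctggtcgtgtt

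The retinoid X receptors are the shared dimer partners of the PPAR, LXR, PXR, CAR, vitamin D, thyroid hormone and retinoic acid receptors. Rxra was at 33.2 FPKM in the knockout library and 44.1 FPKM in the wild-type library (ratio 0.752, interval 0.676 to 0.837). Rxrb was at 25.2 FPKM in KO and 23.3 FPKM in WT (0.960 to 1.22), a difference within counting error. Rxra made up 56.8% of the family's summed FPKM in the knockout library and 65.4% in the wild-type library. Rxrg, known from muscle and nervous tissue, was listed at 0 in both.

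**Figure D3:**
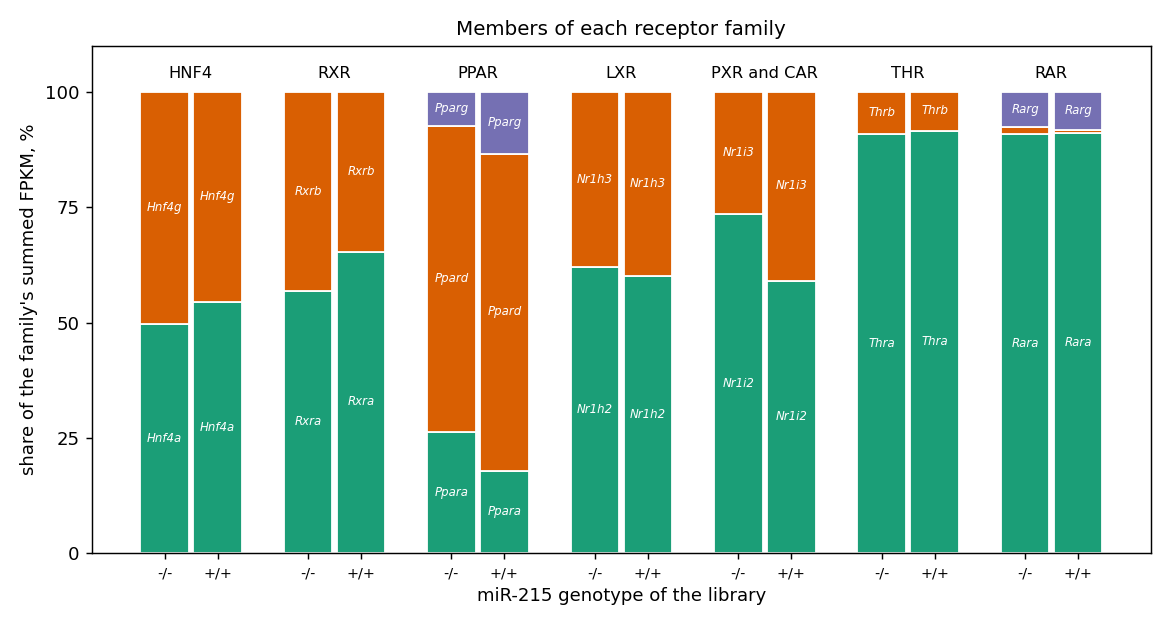
Share of each receptor family's summed FPKM taken by its members, in percent, in the miR-215-/- library (left bar of each pair) and the miR-215+/+ library (right bar). PXR (Nr1i2) takes 73.5% of the PXR and CAR pair in the knockout library and 59.1% in the wild-type library, and Ppara 26.2% in the knockout library and 17.9% in the wild-type library of the PPAR family, while the thyroid hormone (THR) and retinoic acid (RAR) receptor families keep nearly the same shares.

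The liver X receptors respond to oxysterols and control sterol export. Nr1h2 was at 60.01 FPKM in the knockout library and 73.5 FPKM in the wild-type library (ratio 0.817, interval 0.753 to 0.885). Nr1h3 was at 36.8 FPKM in KO and 48.9 FPKM in WT (0.753, 0.676 to 0.837). Of their 8 targets kept, 5 were lower and 3 higher, where 56% of all genes kept were lower. The median log2 ratio of these 8 was -0.02. With equal sums the median was 0.13, with 3 of 9 lower. Abcg5, whose protein pairs with that of Abcg8 to pump sterols back into the gut lumen, was at 236 FPKM in KO and 374 FPKM in WT. Abcg8 was at 124 FPKM in KO and 224 FPKM in WT. They were the 2 of the list at least 1.5-fold lower, and with equal sums only 1 was. Scd2, a fatty acid desaturase, was higher at 17.7 FPKM in KO and 10.95 FPKM in WT.

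Vdr (chromosome 15, 97854425 to 97910630), the vitamin D receptor that drives calcium uptake, was at 102 FPKM in the knockout library and 142 FPKM in the wild-type library (ratio 0.715, interval 0.687 to 0.744). All 4 of its targets kept were lower, with a median log2 ratio of -0.57, although Atp2b1 went to just above 0 with equal sums. Of all genes kept 56% were lower, and of those at 10 FPKM or more in both libraries 65.8%. S100g, the intestinal calcium-binding protein calbindin-D9k, was at 13.4 FPKM in KO and 26.4 FPKM in WT (0.366 to 0.702). Slc34a2, the phosphate cotransporter, was at 219 FPKM in KO and 348 FPKM in WT, and Slc30a10, a manganese transporter, at 7.60 FPKM in KO and 11.03 FPKM in WT. Cyp24a1, Trpv6 and Trpv5, the classic vitamin D-induced hydroxylase and calcium channels, were listed at 0 in both libraries.

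Thyroid hormone receptor transcripts were carried mostly by Thra, at 43.5 FPKM in the knockout library and 61.9 FPKM in the wild-type library (ratio 0.704, interval 0.647 to 0.766). Thrb, which holds the seed match, was at 4.37 FPKM in KO and 5.65 FPKM in WT (0.644 to 0.927). Thra overlaps the clock receptor gene Nr1d1 on the other strand over 263 exonic nt, and Nr1d1 was at 31.3 FPKM in KO and 39.4 FPKM in WT. Of 5 targets kept, 3 were at least 1.5-fold lower and 1 at least 1.5-fold higher, against 7.26% and 4.83% of all genes kept. The median log2 ratio of the 5 targets was -0.66, but -0.31 with no filter on low values, which adds Thrsp. Akp3, an intestinal alkaline phosphatase with close paralogues, was at 17.9 FPKM in KO and 67.5 FPKM in WT (0.232 to 0.304). Me1, malic enzyme, was at 9.69 FPKM in KO and 20.3 FPKM in WT, and Dio1, a deiodinase of thyroid hormone, was the most abundant at 70.8 FPKM in KO and 113 FPKM in WT. Klf9, also a glucocorticoid-responsive gene, was higher at 11.6 FPKM in KO and 6.58 FPKM in WT.

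Of the retinoic acid receptors, Rara led at 11.02 FPKM in the knockout library and 14.5 FPKM in the wild-type library (ratio 0.758, interval 0.654 to 0.879). Rarg passed the 1 FPKM limit through the wild-type library alone, at 0.920 FPKM in KO and 1.30 FPKM in WT (0.399 to 1.23). Rarb, itself a retinoic acid-induced gene, was at 0.192 FPKM in KO and 0.1199 FPKM in WT, too few fragments to place, and its exons overlap those of Top2b on the other strand over 1793 nt. Of 10 listed targets 4 were kept, of which 2 were higher and 2 lower. Tgm2, a transglutaminase, was at 84.7 FPKM in KO and 45.7 FPKM in WT (1.74 to 1.98), Dhrs3, a retinal reductase, at 32.4 FPKM in KO and 41.4 FPKM in WT, Lrat, which esterifies retinol, at 8.93 FPKM in KO and 9.76 FPKM in WT, and Isx, the repressor of carotenoid uptake, at 119 FPKM in KO and 113 FPKM in WT.

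Esrra (chromosome 19, 6910977 to 6921813), an orphan receptor that raises mitochondrial genes together with PGC-1 coactivators, was at 131 FPKM in the knockout library and 169 FPKM in the wild-type library (ratio 0.771, interval 0.733 to 0.811). Its 7 targets, which include Esrra itself, were all lower as deposited and 6 of 7 with equal sums, none by 1.5-fold, with a median log2 ratio of -0.31. Among genes at 10 FPKM or more in both libraries, as all 7 were, 65.8% were lower as deposited. Acadm, a fatty acid dehydrogenase also on the PPAR list, was at 99.6 FPKM in KO and 145 FPKM in WT, Cycs, cytochrome c, at 131 FPKM in KO and 169 FPKM in WT, and Atp5b, an ATP synthase subunit, at 1565 FPKM in KO and 1725 FPKM in WT. Esrrg, the relative known from oxidative tissues, was below 1 FPKM at 0.883 FPKM in KO and 0.464 FPKM in WT (ratio 1.90, interval 1.11 to 3.34). It lies at 187608791 to 188214885 on chromosome 1, where miR-215-5p is encoded at 185313610 to 185313630. Nr1i3, Nr5a2 and Rxrg are also on chromosome 1, and the part of linkage to the miR-215 locus in their values was not tested. Esrrb was listed at 0 in both.

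Nr5a2, which encodes LRH-1, a phospholipid-binding receptor of crypt renewal and gut steroid synthesis, was higher at 9.67 FPKM in the knockout library and 7.15 FPKM in the wild-type library, or about 292 fragments in KO and 209 in WT (ratio 1.35, interval 1.13 to 1.62). Its annotated transcripts run from 1756 to 4733 nt, and with the shortest the interval was 1.05 to 1.74. Ccnd1, the cell cycle target that leads its list, was at 17.4 FPKM in KO and 8.78 FPKM in WT (1.72 to 2.28), Scarb1, a lipoprotein receptor, at 2.35 FPKM in KO and 3.97 FPKM in WT, and Ccne1 at 1.92 FPKM in KO and 1.64 FPKM in WT. The 10 proliferation markers were all higher in the same library, with a median log2 ratio of 0.55, where 44% of all genes kept were higher. The part of proliferation in the Nr5a2 and Ccnd1 values was not tested. Cyp11a1 and Cyp11b1, the steroid synthesis targets, were below 0.1 FPKM. Nr6a1, the germ cell nuclear factor and a holder of the seed match, was at 3.91 FPKM in KO and 5.25 FPKM in WT (0.621 to 0.893). Gdf9, an oocyte target of it, was at 2.17 FPKM in KO and 0.771 FPKM in WT (1.43 to 5.93). It passed the 1 FPKM limit through the knockout library alone, on about 36 fragments in KO and 12 in WT.

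Of the steroid receptors among the 37, only Nr3c2, the mineralocorticoid receptor of salt balance, was above 1 FPKM, at 7.89 FPKM in the knockout library and 9.25 FPKM in the wild-type library (ratio 0.853, interval 0.746 to 0.975). Its 5 targets kept were all above 0 on the log2 scale, in the opposite direction to the receptor, where 44% of all genes kept were above 0. Sgk1, a kinase that stabilizes sodium channels, was at 503 FPKM in KO and 217 FPKM in WT (2.24 to 2.39), Tsc22d3, which encodes GILZ, at 160 FPKM in KO and 77.5 FPKM in WT (1.93 to 2.21), and Hsd11b2, which inactivates glucocorticoids, at 4.58 FPKM in KO and 2.81 FPKM in WT (1.12 to 2.39). Sgk1 and Tsc22d3 are also classic targets of the glucocorticoid receptor, whose gene Nr3c1 was at 27.6 FPKM in KO and 36.8 FPKM in WT. The sodium channel genes Scnn1b and Scnn1g were listed at 0 in both libraries. The oestrogen and progesterone receptors were at or near 0. Esr1 and Pgr were listed at 0 in both libraries, and Esr2 was at 0 in the knockout library and at about 1 fragment in the wild-type library. None of the 5 listed oestrogen receptor targets reached 1 FPKM.

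Nr2f6, an orphan repressor of the COUP-TF group, was at 38.0 FPKM in the knockout library and 51.1 FPKM in the wild-type library (ratio 0.744, interval 0.677 to 0.817). Its exons overlap those of Ocel1 on the other strand over 1622 nt, and Ocel1 was itself lower, at 8.14 FPKM in KO and 26.4 FPKM in WT; its part in the Nr2f6 value was not tested. Nr2c1 was at 5.24 FPKM in KO and 5.53 FPKM in WT (0.769 to 1.17) and Nr2c2 at 5.76 FPKM in KO and 5.84 FPKM in WT (0.857 to 1.13). These 2 testicular receptors, which repress and compete for AGGTCA elements, were within counting error. Exons of Nr2c2 overlap those of Mrps25 on the other strand over 4590 nt, and Mrps25 was at 11.7 FPKM in KO and 11.8 FPKM in WT. Nr2f2, known from mesenchyme and venous endothelium, was at 1.503 FPKM in KO and 1.61 FPKM in WT (0.593 to 1.46). Beside it, the markers of fibroblasts and smooth muscle were 3.33 times as high in sum in the knockout library; their part in the Nr2f2 value was not tested. Nr2f1, its neural and mesenchymal paralogue, was listed at 0 in both. Nr2e3, a photoreceptor factor, was at 0.772 FPKM in KO and 0.401 FPKM in WT, about 15 fragments in KO and 7 in WT (0.739 to 5.58).

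Nr4a2, a receptor induced within minutes of stimulation, was at 1.23 FPKM in the knockout library and 1.02 FPKM in the wild-type library (ratio 1.20, interval 0.737 to 1.98). Nr4a3, of the same kind and with the seed match, rested on about 9 fragments in KO and 6 in WT. Of the 8 immediate early genes kept, 6 were higher, with a median log2 ratio of 0.60, where 44% of all genes kept were higher. Rora, known from lymphoid and neural cells, was at 0.275 FPKM in KO and 0.143 FPKM in WT, about 17 fragments in KO and 9 in WT (0.812 to 4.90), and Rorb was listed at 0. For the 6 receptors at 0 in both libraries, Rxrg, Rorb, Esrrb, Esr1, Pgr and Nr2f1, the limit that 3 fragments set was 0.0368 to 0.173 FPKM in the knockout library and 0.0381 to 0.178 FPKM in the wild-type library.

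Coregulators lay on both sides of 0. Of 13 coactivators 9 were above 0 and 4 below, with a median log2 ratio of 0.13, and of 8 corepressors 4 were on each side, with a median of 0.00284. Of all genes kept, 44% were above 0. With equal sums 10 of 13 coactivators and 6 of 8 corepressors were above 0, where only 40.7% of all genes were below 0. Pprc1, a PGC-1 relative, was the only coregulator at least 1.5-fold apart on the log2(FPKM + 1) scale, at 4.39 FPKM in the knockout library and 2.16 FPKM in the wild-type library (ratio 2.04, interval 1.60 to 2.60). Ncoa7 was lower at 3.75 FPKM in KO and 6.09 FPKM in WT, Ppargc1b higher at 3.93 FPKM in KO and 2.97 FPKM in WT, and Ncoa4, the most abundant, was at 60.6 FPKM in KO and 67.0 FPKM in WT. Among corepressors, Tbl1xr1 was at 10.03 FPKM in KO and 8.11 FPKM in WT, Tbl1x at 12.1 FPKM in KO and 14.0 FPKM in WT, and Ncor1, the most abundant, at 51.5 FPKM in KO and 58.2 FPKM in WT.

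**Figure D4:**
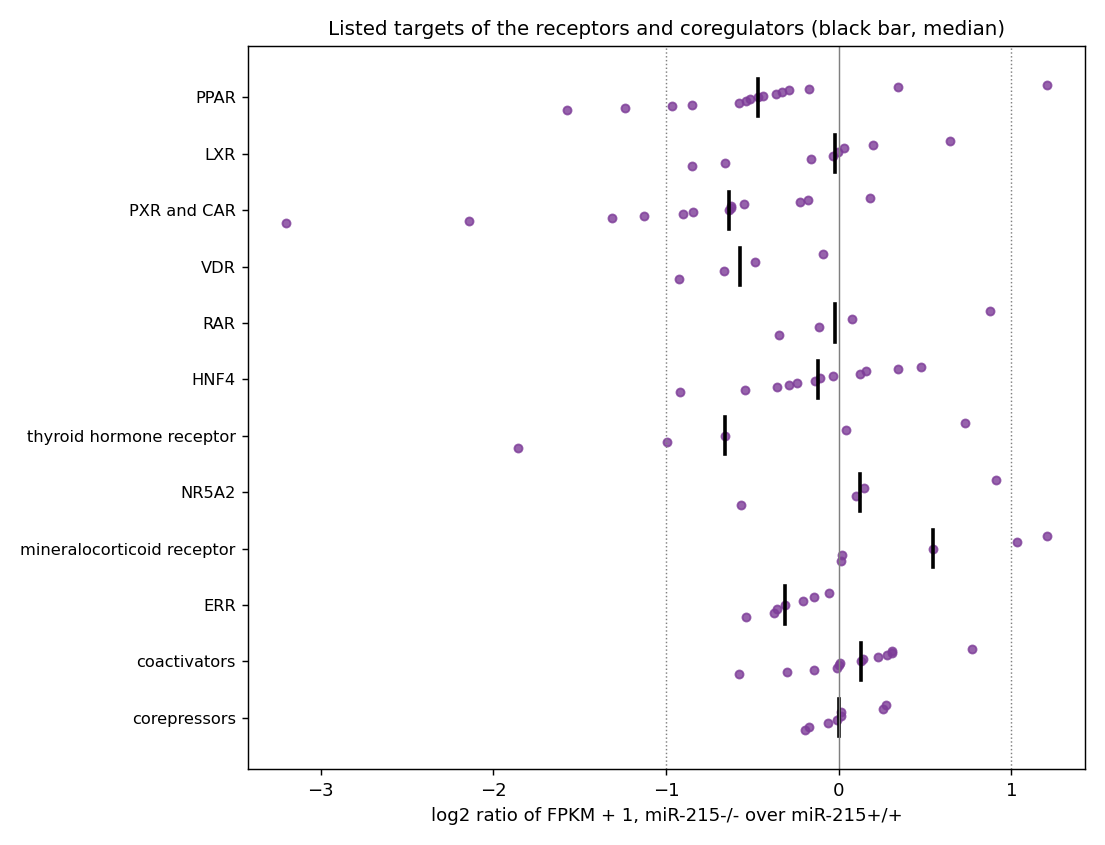
Log2 ratio of FPKM + 1, miR-215-/- over miR-215+/+, for each kept gene (points) of the lists of receptor targets and coregulators with at least 4 kept genes; black bars are medians, dotted lines mark 2-fold. The PXR and CAR list, with 13 genes, has a median of -0.63, the thyroid hormone receptor list, with 5, one of -0.66 and the mineralocorticoid receptor list one of 0.55, and the coregulators lie around 0; the HNF4, LXR and RAR medians change sign under equal sums.

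The target and coregulator lists hold 121 genes outside the receptors, not all of them kept. Of all genes kept, 1.34% were 2-fold higher and 2.04% were 2-fold lower on the log2(FPKM + 1) scale. Of the listed genes, 3 were 2-fold higher and 7 were 2-fold lower on that scale. Only kept genes entered these counts, so a share of the 121 cannot be set beside those percentages. The higher ones were Angptl4, Sgk1 and Tsc22d3, and the lower ones Cyp4a10, Cd36, Cyp3a11, Cyp2c55, Cyp2c29, Gsta1 and Akp3. Among the kept genes, by the ratio of FPKM alone, without the added 1, Pprc1 and Gdf9 were also past 2-fold higher. Gdf9 was kept through the knockout library alone. Me1, Acot1 and Acaa1b were past 2-fold lower by that ratio. With equal sums the counts were 5 higher and 6 lower. Position along the gut was read beside these values. The 5 proximal intestine markers kept were all lower, with a median log2 ratio of -0.19, and of the 5 distal markers 4 were lower, with a median of -0.29. Of all genes kept 56% were lower, and of those at 10 FPKM or more in both libraries 65.8%. The 9 enterocyte markers, all at such levels, had a median of -0.14, with 8 lower. Of these, Apoa1, Apoa4 and Fabp2 are also on the HNF4 list and Fabp1 on the PPAR list, so the lists are not separate readings. With equal sums 4 proximal, 3 distal and 6 enterocyte markers were lower, where 40.7% of all genes were. The part of these cell composition measures in the receptor and target values was not tested.

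The seed matches were set beside the ratios. Ppard, Thrb and Nr6a1, the 3 kept genes with TAGGTCA in the 3' UTR, had log2 ratios of -0.18, -0.31 and -0.35. Their median was -0.31, and that of the kept receptors without TAGGTCA was -0.27. The latter include Nr2c1 and Nr2f2, which hold AGGTCAA and were at -0.06 each. Nr4a3, the fourth holder of TAGGTCA and below 1 FPKM in both libraries, was at 0.07. The 3 kept holders were 12% of the receptors kept, whereas 6.82% of the 10072 kept genes with an annotated 3' UTR held TAGGTCA. The median 3' UTR was 1561 nt in the receptors and 1103 nt in all kept genes. Across all kept genes the median log2 ratio was -0.00064 with the match and -0.05 without it.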

How the data were processed

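Messenger RNA was sequenced from mouse small intestinal epithelial cells, 1 library of miR-215-/- and 1 of miR-215+/+. The labels' protocols name the RNeasy Mini kit for RNA and the TruSeq stranded mRNA kit for the libraries. The authors deposited 1 FPKM value per gene and library; the unit was inferred from the layout and values. Per the submitters' processing notes, TopHat2 2.0.13, Bowtie2 2.2.3, SAMtools 0.1.19, Cuffnorm 2.2.1 and mm10 were used; which annotation, strand setting and scaling went with them is not stated.

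Genes at 1 FPKM or more in at least 1 library were kept. The log2 ratio is log2(knockout + 1) minus log2(wild-type + 1), which understates differences of low genes; ratios with intervals are of the deposited values. Fragment numbers came from the worth of 1 fragment over 1 kb, 0.108 FPKM in the knockout library and 0.111 in the wild-type library, read from single-transcript genes of at least 2000 nt below 0.3 FPKM, and from the median length of GENCODE M21 transcripts linked to RefSeq, or of all where none is. Intervals are exact Clopper-Pearson intervals at 95%, and a gene at 0 is limited by 3 fragments, both for counting error alone. The code was tested on simulated data. The members and lists were chosen with earlier results of these data known. Every receptor was accounted for. From each target and coregulator list the most abundant gene and up to 3 kept genes furthest from a log2 ratio of 0 were named, and marker lists were given by counts and sums. A few genes chosen in this way are not reported here. Of the 37 receptors, 37 matched the annotation. Python 3.11.15, pandas 2.3.3, numpy 2.4.6 and scipy 1.17.1 were used.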

Additional observations from a re-analysis of the deposited data

How the results depend on the processing

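With 1 library per genotype, no paired analysis was possible because no replicate exists, and none could be left out. No receptor was 2-fold apart under any of the 7 alternatives, which were pseudocounts of 0.1 and 5 FPKM, no filter, a minimum of 5 FPKM, equal sums, equal upper quartiles and, chosen after seeing the data, removal of the trend with transcript length. The count of receptors 1.5-fold apart was 2 as reported, 0 with a pseudocount of 5 FPKM, and 1 (Pparg alone) with equal sums, equal upper quartiles or the length trend removed. A larger pseudocount moves every ratio toward 1 by construction. The median log2 ratio of the receptors ran from -0.31 to -0.17, and the 10 listed target and coregulator genes 2-fold apart became 8 to 13. Of the 25 receptors kept, 16 were below 0 and 5 above 0 under all of these settings, and 4 changed sign. The median of all genes was -0.05 as deposited and 0.07 with equal sums. With the shortest annotated transcript the values stay the same and intervals widen. Depth limits the receptors below 1 FPKM.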
